A study of Homo sapiens with 6 samples.

Results

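The heat shock proteins and chaperones examined here were the genes of the HSP90, HSP70, HSP110, HSP60 and HSP10, CCT and J-protein families, together with HSPB1, chosen by their symbols and not by their values. The rule took the symbols that begin with DNAJA, DNAJB, DNAJC, HSPA or HSP90, the CCT subunits, and HSPH1, HSPD1, HSPE1, TCP1 and HSPB1, and left out symbols that end in P and a number, except TCP1. It found 71 of the 16834 genes measured, of which 39 were J-proteins, 12 HSP70 proteins, 9 subunits of CCT, 3 HSP90 proteins, 3 HSP110 proteins, HSPD1, HSPE1, HSPB1 and 2 pseudogenes, HSP90AB3P and HSP90B2P. All 71 were tested, since no gene of the table was left out.

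Molecular chaperones bind proteins that are unfolded or still being made and let them fold or refold. HSP70 proteins bind short stretches of unfolded chain in a cycle driven by ATP, which J-proteins start and HSP110 proteins turn over by exchanging the nucleotide, and HSP90 acts later on many kinases and receptors. CCT in the cytosol and HSPD1 in the mitochondrion are closed chambers in which whole proteins fold, actin and tubulin among those of CCT, and heat shock factor HSF1 switches on many chaperone genes when unfolded proteins collect.

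RNA was recovered from 3 Flag-IPs and 3 HA-IPs of HEK293-T Flp-In cells, a human embryonic kidney line with a recombination site that received a single copy of ccTaggedRP by stable insertion. Cells of both groups were grown with fetal bovine serum and hygromycin B, cycled asynchronously without a synchronizing drug and carried the same construct. In it a CAG promoter drives both tagged forms of mouse RPL10a, a protein of the large ribosomal subunit. The Flag form carries a degron of CDT1 and was predicted to be present in G1 and S, the HA form a degron of geminin and was predicted to be present in S and G2/M, so that the comparison asks which mRNAs were bound by ribosomes of either part of the cycle. The libraries were made from polyadenylated RNA and held 23174532 to 44134833 reads on the listed genes, no input library or library of untagged cells was analysed here, and nothing states that the 3 replicates came from separate cultures, so that p-values measure the spread between these samples, which may be technical.

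Values are normalized counts, the reads per gene divided by a size factor per library. A log2 fold change compares HA-IPs with Flag-IPs on the scale log2(normalized count + 1), positive where the HA-IPs were higher, and is given with its standard error (3 libraries per group). A gene was called when limma's two-sided p-value, adjusted by Benjamini-Hochberg over all 16834 genes, was at most 0.05. In a bulk sample, fewer cells with an mRNA and less of it per cell cannot be told apart.

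Of the markers of the line, KRT8, KRT18 and VIM were present in all 6 libraries, while PAX2 and NEFM were low. PAX2 was 110, 93.6 and 131 in the Flag-IPs against 79.7, 72.3 and 44.1 in the HA-IPs. It was called higher in the Flag-IPs (log2 fold change -0.79 ± 0.23, limma adjusted p = 0.047), but in 0 of 6 fits without a library. The other 4 were not called. Of 20 heart muscle markers, 16 were in the table and all 16 were called higher in the Flag-IPs. Their summed share of the normalized counts was 0.684%, 0.499% and 0.317% in Flag-IP replicates 1, 2 and 3 and 0.010%, 0.00587% and 0.0607% in HA-IP replicates 1, 2 and 3, with CSRP3 at 0 in HA-IP replicates 1 and 2. These are genes of contracting muscle and not known marks of a kidney line, and their values are set beside those of the chaperone genes they move with. A gene was listed only when 3 libraries reached 10 reads. TNNT2, MYL2, MYBPC3, MB and CSRP3 did not reach that in every HA-IP, so they were listed only with the help of Flag-IPs. The direction of these markers was therefore partly set by the filter.

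Calls differed by chaperone family, and the families also differed in level. Over all genes the calls went with level, with 34.8% called towards the HA-IPs at a mean of at least 10000 and 1.08% under 1000. Family and level were not tested apart. Genes of HSP70, HSP110, HSP90, CCT and HSPD1 were called only towards the HA-IPs, 11 of them, with differences of 16% to 25%. J-proteins were called only towards the Flag-IPs, 5 of 39, and the other gene called in that direction was HSPE1. In all, 11 of the 71 members were called higher in the HA-IPs and 6 higher in the Flag-IPs, against 5.79% and 7.1% of all genes. Values of the 2 groups were fully apart in 18 members with the HA-IPs higher and in 7 with the Flag-IPs higher, against 16.1% and 16.1% of all genes. The median log2 fold change was 0.019 over the members and -0.0049 over all genes.

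The counts depended on single libraries. Without Flag-IP replicate 2, 3 members were called higher in the HA-IPs and 2 higher in the Flag-IPs, and without HA-IP replicate 1 these were 9 and 2. Without HA-IP replicate 2 they were 4 and 2, without HA-IP replicate 3 they were 5 and 4, and without Flag-IP replicate 3 they were 17 and 6. CCT4, HSPA4L and HSPA8 towards the HA-IPs and DNAJA4 and DNAJB4 towards the Flag-IPs were called in all 6 fits that left out a library.

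**Figure D1:**
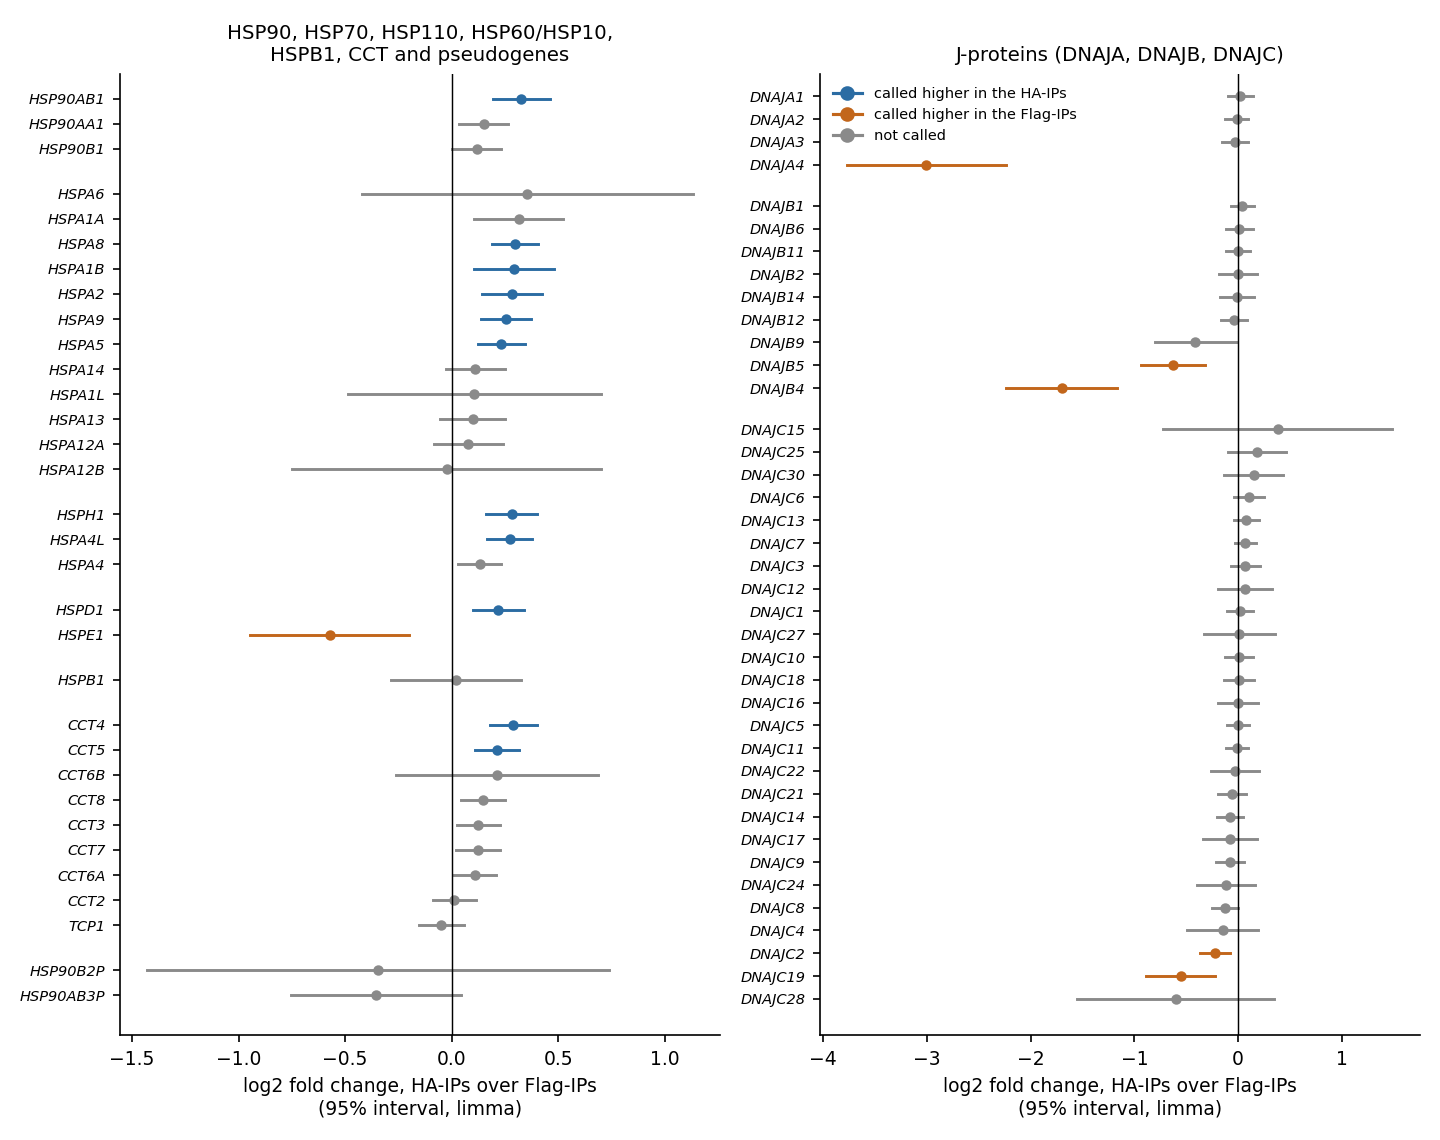
Log2 fold changes (HA-IPs over Flag-IPs) of the 71 members with 95% intervals from limma, by family. Blue marks the 11 genes called higher in the HA-IPs, orange the 6 called higher in the Flag-IPs against grey the other 54. The scales of the panels differ because DNAJA4 lies at -3.01.

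The members' levels differed widely by family, and the size of the level went along with the direction of the difference over all genes. Per kb of the canonical transcript, the J-proteins had a median of 277 normalized counts, with DNAJA1 highest at 3337, and the 30 members of the other families had a median of 7980. HSP90AB1 at 48910 and HSP90AA1 at 45000 stood at the top. By normalized count, HSP90AA1 was the 4th and HSP90AB1 the 5th highest gene of the table in each of the 6 libraries. The share of all normalized counts that fell on the 71 members was 2.66%, 2.68% and 2.70% per Flag-IP and 2.90%, 2.92% and 3.01% per HA-IP.

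Among the 517 genes whose mean reached 10000 normalized counts, a bound chosen after the values were seen, 34.8% were called towards the HA-IPs and 6.38% towards the Flag-IPs. The median log2 fold change of those 517 was 0.14. Of the 19 members at that level, 9 were called higher in the HA-IPs and 0 higher in the Flag-IPs, with a median of 0.21. At an unadjusted p under 0.05, limma, edgeR and DESeq2 also gave 0 members at that level with the Flag-IPs higher, but limma gave 2 with quantile normalization, of which TCP1 was called, and 1 with the same total per library. From 1000 to 10000 normalized counts, 12.5% of all genes were called towards the HA-IPs and 7.52% towards the Flag-IPs, and of 25 members 2 and 1. Under 1000, the shares of all genes were 1.08% and 6.93%, and of 27 members 0 and 5. The members' calls thus split by level in the same direction as those of the whole table. At 1000 or more, 0 of 21 J-proteins were called higher in the HA-IPs and 1 higher in the Flag-IPs, with a median of -0.00042.

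**Figure D2:**
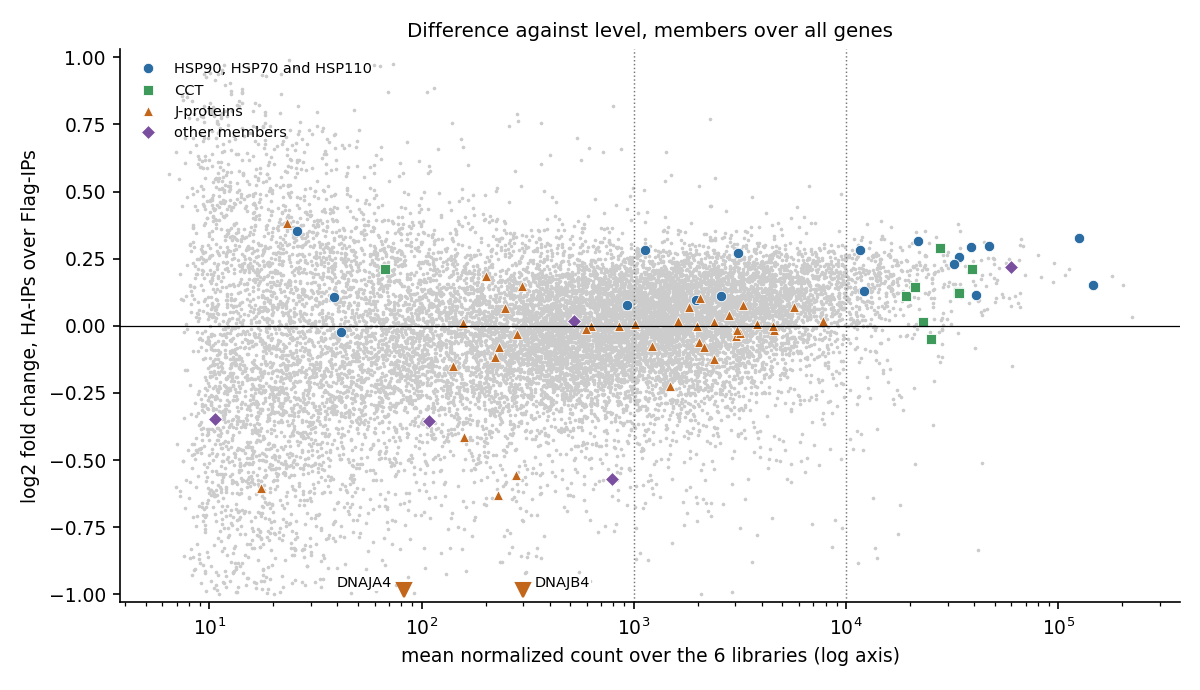
Log2 fold change (HA-IPs over Flag-IPs) against the mean normalized count of the 6 libraries on a log axis, with all genes in grey and the members in colour by family. Dotted lines stand at 1000 and 10000, and 632 of the 16834 genes lie outside the axis, among them DNAJA4 and DNAJB4, which are drawn as triangles at its lower edge. The 19 members right of 10000 lie above 0 except TCP1.

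HSP90 is represented by the cytosolic forms HSP90AA1, which rises most with heat, and HSP90AB1, the constitutive form, and by HSP90B1 of the endoplasmic reticulum (ER). HSP90AB1 was 108734, 106497 and 117493 in the Flag-IPs against 133710, 136628 and 146719 in the HA-IPs. The groups did not overlap, and the difference was called, with a log2 fold change of 0.33 ± 0.061 and a limma adjusted p of 0.0071. Of the fits without a library it lost the call in that without Flag-IP replicate 2. HSP90AA1 was 137939, 138010 and 137136 in the Flag-IPs against 150004, 151628 and 156909 in the HA-IPs. Its groups did not overlap either, but its log2 fold change of 0.15 ± 0.053 was not called (limma adjusted p = 0.087), although both edgeR fits and DESeq2 called it. HSP90AB1 relative to HSP90AA1 was 0.788, 0.772 and 0.857 in the Flag-IPs against 0.891, 0.901 and 0.935 in the HA-IPs, so that within every HA-IP the constitutive form stood closer to the inducible one. Quantile normalization set both differences to 0.00, since each gene held the same rank in all 6 libraries. HSP90B1 gave 0.12 ± 0.052 (limma adjusted p = 0.17), with no overlap between groups.

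In HSP70 and HSP110, 5 of 12 and 2 of 3 genes were called, each higher in the HA-IPs. Of these 15 genes, 14 had a positive log2 fold change. In the whole table, 5.79% were called higher in the HA-IPs and 8257 of 16834 were positive. The called genes other than HSPA2 and HSPA4L had means above 10000. At that level 34.8% of all genes were called towards the HA-IPs, and 433 of 517 were positive. HSPA2 and HSPA4L lay between 1000 and 10000, where 12.5% were called in that direction. Family and level were not tested apart. The median of HSP70 and HSP110 was 0.26. It stayed between 0.19 and 0.28 in every alternative fit and with every library left out. HSPA8, the constitutive HSP70 of the cytosol, was 41242, 42287 and 42849 in the Flag-IPs against 51086, 50706 and 53446 in the HA-IPs. The lowest HA-IP was thus 18% above the highest Flag-IP. Exons of a lncRNA gene on the other strand overlap 11.4% of its exon bases. The log2 fold change was 0.30 ± 0.048 (limma adjusted p = 0.0033), the smallest adjusted p of the members towards the HA-IPs.

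The inducible pair HSPA1A and HSPA1B lies in tandem on chromosome 6, and 69.6% of the 150-base windows of the HSPA1A transcript were found letter for letter in that of HSPA1B, so that reads of this length cannot be assigned between them there and both values are uncertain. HSPA1B was 30460, 36240 and 37534 in the Flag-IPs against 38167, 46284 and 43202 in the HA-IPs, a log2 fold change of 0.29 ± 0.086 (limma adjusted p = 0.044). HSPA1A was 17246, 20318 and 20860 in the Flag-IPs against 20574, 26376 and 25912 in the HA-IPs, a log2 fold change of 0.31 ± 0.095 (limma adjusted p = 0.051). The groups of HSPA1B did not overlap by a narrow margin and those of HSPA1A overlapped. HSPA1A was called by both edgeR fits and DESeq2, with a pseudocount of 10, with the replicate block, with GC and length trends removed and without Flag-IP replicate 3 or HA-IP replicate 1. In both genes replicate 1 was the lowest library of its group. HSPA1B was called in 2 of the 6 fits without a library. Exons of a lncRNA gene on its own strand also overlap 36.6% of the exon bases of HSPA1B.

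The ER and the mitochondrion each have their own HSP70. HSPA5, the ER form also known as BiP, was 28443, 29239 and 31307 in the Flag-IPs against 34830, 34291 and 35323 in the HA-IPs, a log2 fold change of 0.23 ± 0.051 (limma adjusted p = 0.013). HSPA9, the mitochondrial form that also pulls proteins in through the inner membrane, was 30095, 30072 and 32987 in the Flag-IPs against 36026, 36622 and 38490 in the HA-IPs, a log2 fold change of 0.26 ± 0.054 (limma adjusted p = 0.012). Neither gene's groups overlapped. HSPA2, best known from the testis, was far lower at 948, 1029 and 1063 in the Flag-IPs against 1188, 1254 and 1255 in the HA-IPs, yet was called with a similar log2 fold change of 0.28 ± 0.065 (limma adjusted p = 0.017). HSPA14, a ribosome-bound HSP70 that works with DNAJC2, gave 0.11 ± 0.063 and was not called (limma adjusted p = 0.29). The strictly inducible HSPA6 stayed between 14.3 and 36.0 in all libraries and its groups overlapped.

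HSP110 proteins exchange the nucleotide of HSP70 and so release its client. HSPH1 was 10192, 10009 and 11267 in the Flag-IPs against 12240, 13064 and 12906 in the HA-IPs, with a log2 fold change of 0.28 ± 0.055 (limma adjusted p = 0.0084). HSPA4L was 2751, 2864 and 2792 in the Flag-IPs against 3346, 3313 and 3490 in the HA-IPs, with a log2 fold change of 0.27 ± 0.049 (limma adjusted p = 0.0055). HSPA4 gave 0.13 ± 0.047 and was not called (limma adjusted p = 0.091), though its groups did not overlap. Without a library HSPA4L was called in 6 of 6 fits and HSPH1 in 4.

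**Figure D3:**
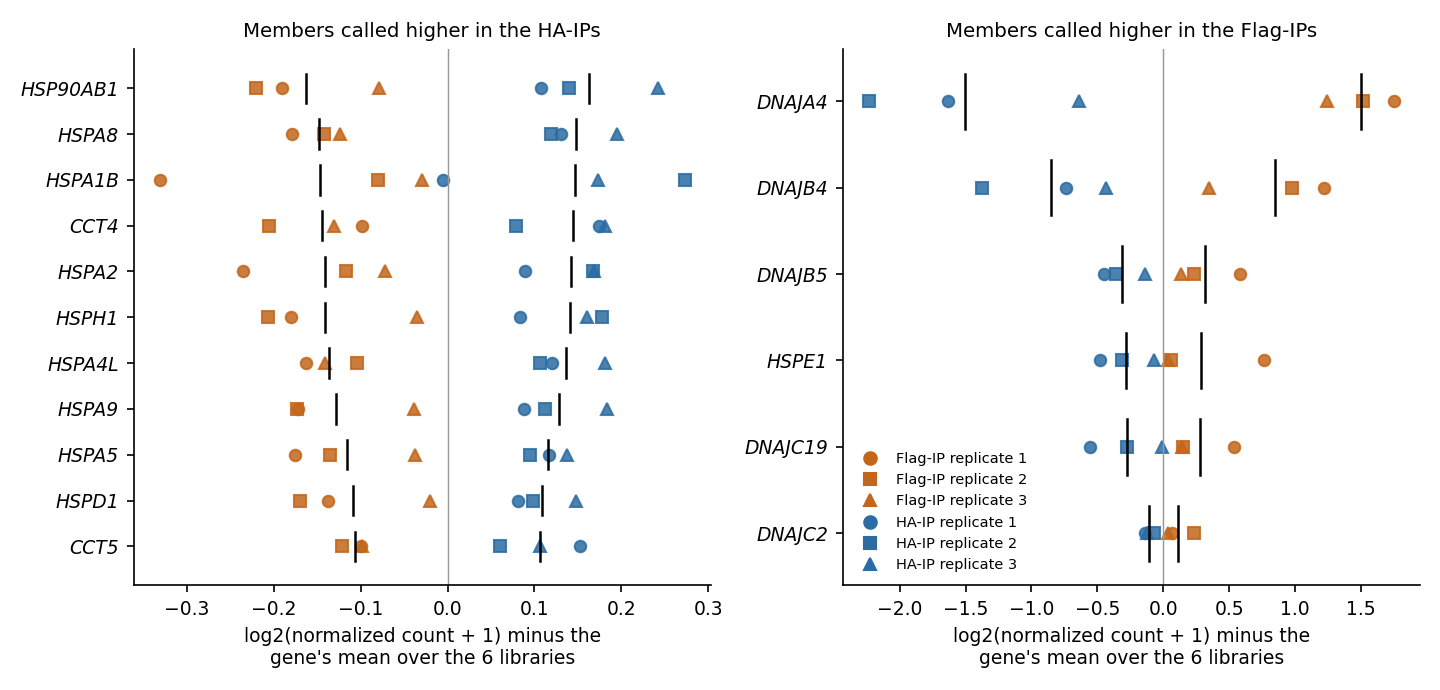
Values of the 17 called members in each library, as log2(normalized count + 1) minus the gene's mean over the 6 libraries. Orange marks Flag-IPs, blue HA-IPs, the shape the replicate number and the black strokes the group means. In the left panel Flag-IP replicate 3 is the highest Flag-IP for 9 of the 11 genes, and the right panel has a wider scale, set by DNAJA4 and DNAJB4.

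The heat shock element, which HSF1 binds, consists of repeats of a short unit in alternating direction. Here it was searched as the pairs TTCNNGAA and GAANNTTC, each its own reverse complement and so read on both strands, in the 250 bases before and 50 after the start that RefSeq gives (GRCh38.p14), and 63 of the 71 members had such a window. A pair was in 20.6% of the members' windows, 10.5% of the windows of the measured genes and 13.5% of all 35116 windows of the reference. The windows of HSPA1A and the HSP70 gene HSPA1L overlap on opposite strands and hold the same pair. Both pairs sharing a unit, which makes 3 alternating units, were in 6.35% of the members' windows and 0.49% of all. These 4 windows were those of HSPA8, HSPA6, DNAJA1 and DNAJB6. Only HSPA8 among them was called, and its upstream 250 bases (chr11:123062137-123062386, minus strand) hold 3 alternating units in 2 places, in capitals, the first letters 230 and 55 bases before the start:
HSPA8: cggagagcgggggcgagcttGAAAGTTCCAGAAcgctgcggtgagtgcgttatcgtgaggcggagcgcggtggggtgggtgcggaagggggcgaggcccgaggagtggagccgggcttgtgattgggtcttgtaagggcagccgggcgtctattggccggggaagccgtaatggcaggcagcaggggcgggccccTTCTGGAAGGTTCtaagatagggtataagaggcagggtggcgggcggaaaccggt

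HSPA1A and HSPA1B share a pair at nearly the same distance, 106 and 105 bases before the start. The stretches of 120 bases around it (HSPA1A at chr6:31815413-31815532 and HSPA1B at chr6:31827609-31827728, both on the plus strand) differ at 8 positions and are shown because the copies resemble each other in front of the start as well as in the transcript, with the pair in capitals:
HSPA1A: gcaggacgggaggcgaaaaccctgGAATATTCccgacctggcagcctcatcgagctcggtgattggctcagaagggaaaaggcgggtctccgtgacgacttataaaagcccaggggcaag
HSPA1B: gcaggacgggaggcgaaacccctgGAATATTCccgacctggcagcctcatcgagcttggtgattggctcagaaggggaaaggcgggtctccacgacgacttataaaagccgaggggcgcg

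The ER members were searched for the ER stress element, CCAAT followed after 9 bases by CCACG on either strand, which factors of the unfolded protein response bind. It was in 3.17% of the members' windows and 0.0769% of all, and the 2 members were HSPA5 and HSP90B1. Their upstream 250 bases (HSPA5 at chr9:125241344-125241593 on the minus strand, HSP90B1 at chr12:103930160-103930409 on the plus strand) are given with the element in capitals, 66 bases before the start of HSPA5 and 194 and 89 bases before that of HSP90B1:
HSPA5: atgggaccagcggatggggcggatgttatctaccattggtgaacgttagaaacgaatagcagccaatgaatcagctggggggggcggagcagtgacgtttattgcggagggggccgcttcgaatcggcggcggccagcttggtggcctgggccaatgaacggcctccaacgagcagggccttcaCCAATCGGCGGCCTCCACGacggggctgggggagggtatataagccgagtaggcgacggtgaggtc
HSP90B1: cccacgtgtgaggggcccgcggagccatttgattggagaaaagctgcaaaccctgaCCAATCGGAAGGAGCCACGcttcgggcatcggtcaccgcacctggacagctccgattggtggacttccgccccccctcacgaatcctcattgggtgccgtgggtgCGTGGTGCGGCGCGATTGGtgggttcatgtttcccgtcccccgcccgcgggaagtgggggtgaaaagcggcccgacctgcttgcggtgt

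Of the 11 members called higher in the HA-IPs, 4 had a heat shock pair (HSPA8, HSPA1B, HSPA9 and CCT4) and 1 the ER element. The pair of HSPA9 began 4 bases before the start and that of CCT4 38 bases after it. A pair was in 10.5% of the windows of all measured genes. Of the 6 called higher in the Flag-IPs, 0 had either. Of 36 J-proteins with a window, 3 had a pair. A match of letters is a description and does not show that a factor was bound in these cells.

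HSPD1 and HSPE1 encode the chamber of mitochondrial folding and its lid, HSP60 and HSP10, which work as a complex, and were called in opposite directions. HSPD1 was 54152, 52959 and 58730 in the Flag-IPs against 62990, 63788 and 66015 in the HA-IPs, a log2 fold change of 0.22 ± 0.055 (limma adjusted p = 0.025). HSPE1 was 1282, 787 and 772 in the Flag-IPs against 541, 608 and 719 in the HA-IPs, a log2 fold change of -0.57 ± 0.17 (limma adjusted p = 0.048). Neither gene's groups overlapped, but Flag-IP replicate 1 stood far above the other libraries for HSPE1. HSPD1 exceeded HSPE1 by 42.2, 67.3 and 76.1 times in the Flag-IPs against by 116, 105 and 91.8 times in the HA-IPs. Per kb of the canonical transcript, HSPD1 had a mean of 26620 and HSPE1 of 1409, although their products are partners. HSPE1 has the shortest canonical transcript of the members, 557 bases.

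The value of HSPE1 is uncertain in other ways. GENCODE names 26 pseudogenes of HSPE1, more than of any other member, and 18 of HSPD1, with which the genes can share reads. Exons of HSPE1 also overlap those of HSPE1-MOB4 over 10.5% and those of HSPD1 over 7.41% of their bases. Its log2 fold change was -0.33 without Flag-IP replicate 1 and -0.33 with GC and length trends removed. The call of HSPE1 was kept in 2 of 6 fits without a library, and a pseudocount of 0.1, a filter on means under 50, quantile normalization, DESeq2, limma without the variance trend, the replicate block and the removal of GC and length trends each ended it. HSPD1 was called in 2 of 6 such fits.

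The genes lie head to head on chromosome 2, HSPD1 on the minus and HSPE1 on the plus strand, with RefSeq starts at 197500274 and 197500379, 105 bases apart. The 104 bases between the starts (chr2:197500275-197500378, plus strand) thus stand in front of both genes and are shown since a shared promoter sequence went with opposite differences of the mRNAs. Neither the heat shock pair nor the ER element was found in them:
HSPD1-HSPE1: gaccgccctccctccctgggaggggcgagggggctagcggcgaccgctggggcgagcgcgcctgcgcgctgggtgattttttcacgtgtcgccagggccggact

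**Figure D4:**
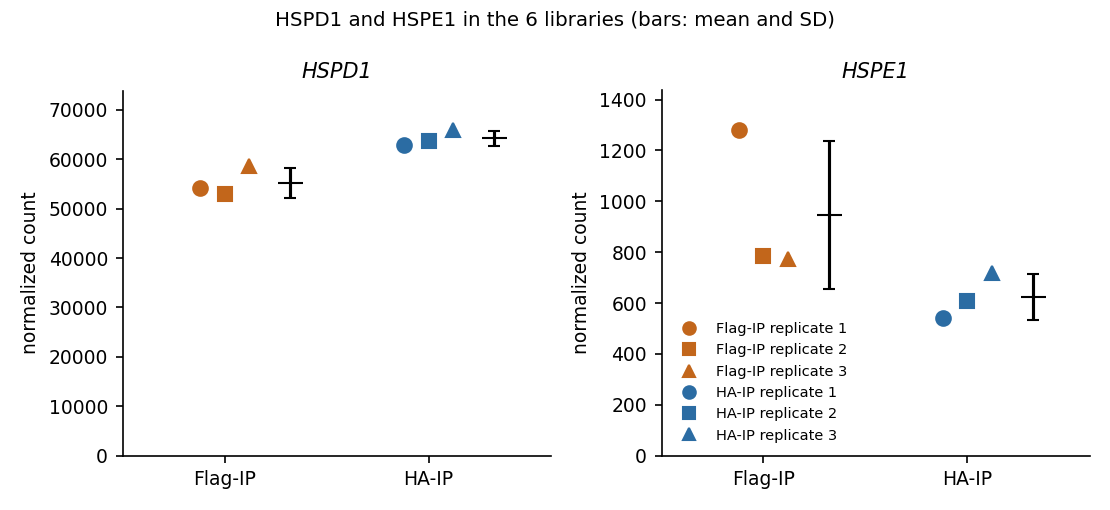
Normalized counts of HSPD1 and HSPE1 in the 6 libraries on axes from 0, with the mean and SD of 3 libraries beside each group. HSPD1 has 54152, 52959 and 58730 in the Flag-IPs against at least 62990 in the HA-IPs, while HSPE1 has 719 at most in the HA-IPs and 1282 in Flag-IP replicate 1.

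CCT is a ring-shaped chamber built from TCP1 and the CCT2 to CCT8 subunits, with CCT6A or CCT6B in the same place. CCT4 was 25606, 23771 and 25031 in the Flag-IPs against 30927, 28944 and 31073 in the HA-IPs, a log2 fold change of 0.29 ± 0.051 (limma adjusted p = 0.0052). CCT5 was 36565, 36000 and 36595 in the Flag-IPs against 43544, 40824 and 42145 in the HA-IPs, a log2 fold change of 0.21 ± 0.047 (limma adjusted p = 0.015). These 2 of the 9 genes were called. All of the 9 but CCT6B had a mean of at least 10000, where 34.8% of all genes were called towards the HA-IPs. The share called in CCT did not exceed that of its level. Exons of CCT4 and CCT5 overlap those of antisense lncRNA genes over 10.2% and 30.8% of their bases.

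The subunits did not move as a block. CCT8 (0.15 ± 0.047, limma adjusted p = 0.064), CCT3 (0.13 ± 0.046), CCT7 (0.12 ± 0.047) and CCT6A (0.11 ± 0.045) had no overlap between groups and were not called. The groups of CCT2 (0.013 ± 0.046), TCP1 (-0.048 ± 0.048) and CCT6B (0.21 ± 0.22) overlapped, and CCT6B, the testis form, had 53.2 to 84.7 normalized counts only. TCP1 was 24350, 26317 and 25536 in the Flag-IPs against 24351, 24318 and 25002 in the HA-IPs, although it is needed in the same number of copies as CCT4. Under quantile normalization CCT2, CCT3 and CCT7 turned negative and TCP1 was called towards the Flag-IPs, and with GC and length trends removed CCT3, CCT7 and CCT8 were called as well, so that the family's median was 0.032 and 0.16 instead of 0.13.

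HSPB1, the only small heat shock protein of the rule, was 464, 508 and 581 in the Flag-IPs against 430, 505 and 657 in the HA-IPs. Its groups overlapped throughout, with a log2 fold change of 0.020 ± 0.14.

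J-proteins bring clients to HSP70 and start its ATP cycle through the J domain that names them. Of the 39 J-proteins, 5 were called higher in the Flag-IPs and 0 higher in the HA-IPs, against 7.1% and 5.79% of all genes. Under a mean of 1000 normalized counts these shares of all genes were 6.93% and 1.08%. The 5 J-proteins were 1 of 4 DNAJA, 2 of 9 DNAJB and 2 of 26 DNAJC genes. At an unadjusted p under 0.05, limma as above, edgeR and DESeq2 also gave 0 higher in the HA-IPs, and limma gave 1 with quantile normalization, with GC and length trends removed and without Flag-IP replicate 3. Their median was -0.012. The main partners of HSP70 in the cytosol stayed level, DNAJB1 at 2880, 2738 and 2680 in the Flag-IPs against 2813, 2835 and 2891 in the HA-IPs, and DNAJA1 at 7944, 7422 and 7689 in the Flag-IPs against 7346, 7694 and 8337 in the HA-IPs. Both had overlapping groups, with 95% intervals of the log2 fold change from -0.068 to 0.15 for DNAJB1 and from -0.10 to 0.14 for DNAJA1, with upper bounds under 0.19, the lower bound of HSPA8. DNAJC9, a histone chaperone, gave -0.077 ± 0.060 and was not called, and 56.5% of its exon bases overlap FAM149B1.

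DNAJA4 and DNAJB4 differed most. DNAJA4 was 171, 146 and 121 in the Flag-IPs against 15.5, 9.90 and 31.98 in the HA-IPs, a log2 fold change of -3.01 ± 0.35 (limma adjusted p = 0.00055). DNAJB4 was 573, 485 and 313 in the Flag-IPs against 147, 94.1 and 181 in the HA-IPs, a log2 fold change of -1.70 ± 0.24 (limma adjusted p = 0.0018). The groups of both genes were apart by wide margins, and both were called in 6 of 6 fits without a library. In both, Flag-IP replicate 1 was highest and replicate 3 lowest of the Flag-IPs, and HA-IP replicate 3 was highest and replicate 2 lowest of the HA-IPs. This is the order of the 6 libraries in the summed heart muscle markers, 16 of 16 of which were called in the same direction. Some of those markers were listed only with the help of Flag-IPs, as given above. The part of the markers' source in the values of DNAJA4 and DNAJB4 was not tested.

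DNAJB5, DNAJC19 and DNAJC2 differed less. DNAJB5 was 334, 262 and 244 in the Flag-IPs against 163, 173 and 203 in the HA-IPs (log2 fold change -0.63 ± 0.14, limma adjusted p = 0.015). DNAJC19, a part of the mitochondrial import motor that HSPA9 drives, was 391, 300 and 298 in the Flag-IPs against 183, 223 and 268 in the HA-IPs (log2 fold change -0.56 ± 0.15, limma adjusted p = 0.035), and GENCODE names 9 pseudogenes of it. DNAJC2, the ribosome-bound partner of HSPA14, was 1538, 1725 and 1503 in the Flag-IPs against 1334, 1397 and 1344 in the HA-IPs (log2 fold change -0.22 ± 0.065, limma adjusted p = 0.043), and 20.9% of its exon bases overlap PMPCB. None of these 3 genes had overlapping groups, and DNAJB5, DNAJC19 and DNAJC2 were called in 3, 2 and 2 of the 6 fits without a library.

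By compartment, 8 of 36 members of the cytosol and nucleus were called higher in the HA-IPs and 3 higher in the Flag-IPs, 1 and 0 of 10 in the ER, and 2 and 2 of 7 in the mitochondrion, where 5.79% and 7.1% of all genes were called. The mitochondrial genes were HSPA9 and HSPD1, higher in the HA-IPs and above 10000 normalized counts, and DNAJC19 and HSPE1, higher in the Flag-IPs and under 1000.

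Of 67 further genes of protein folding outside the rule, 63 were in the table, and 7 were called higher in the HA-IPs and 11 higher in the Flag-IPs, with a median of 0.0088, beside 5.79% and 7.1% of all genes. HSF1 was 4651, 5470 and 5689 in the Flag-IPs against 4629, 5195 and 4646 in the HA-IPs, with overlapping groups (log2 fold change -0.12 ± 0.075, limma adjusted p = 0.32). Of 13 helpers of HSP70, 4 were called higher in the HA-IPs and 0 higher in the Flag-IPs. BAG1, which exchanges the nucleotide of HSP70 as HSP110 does, was 604, 674 and 805 in the Flag-IPs against 954, 982 and 893 in the HA-IPs (log2 fold change 0.45 ± 0.097, limma adjusted p = 0.013). It was called in 3 of 6 fits without a library. Of 13 helpers of HSP90, 2 were called higher in the HA-IPs and 1 higher in the Flag-IPs.

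Prefoldin hands actin and tubulin to CCT. All 9 genes of prefoldin and the CCT helpers had a negative log2 fold change, with a median of -0.25, opposite in sign to the median of CCT, and 2 were called. All of them but VBP1 had means under 1000, where 6408 of 10875 genes were negative and 6.93% were called towards the Flag-IPs. All CCT genes but CCT6B had means of at least 10000, where 433 of 517 genes were positive. Family and level were not tested apart. PFDN2 was 910, 804 and 802 in the Flag-IPs against 546, 647 and 739 in the HA-IPs (log2 fold change -0.39 ± 0.10, limma adjusted p = 0.032), and PFDN5 was 1266, 1059 and 917 in the Flag-IPs against 669, 854 and 867 in the HA-IPs (log2 fold change -0.44 ± 0.12, limma adjusted p = 0.038). These calls depended on the fit. With GC and length trends removed, with the replicate block, in limma without the variance trend and without Flag-IP replicate 2, HA-IP replicate 1 or HA-IP replicate 2, 0 of the 9 were called, against 4 in DESeq2 and 5 without Flag-IP replicate 3. The median was -0.14 with GC and length trends removed, -0.13 without Flag-IP replicate 1 and -0.38 without Flag-IP replicate 3. BTF3, which with NACA covers the chain as it leaves the ribosome, was 7632, 5420 and 4954 in the Flag-IPs against 3928, 4217 and 4733 in the HA-IPs (log2 fold change -0.46 ± 0.13, limma adjusted p = 0.038). BTF3 was called in 2 of 6 fits without a library. HSCB, a J-protein of iron-sulfur cluster assembly that the rule on symbols missed, was 310, 276 and 260 in the Flag-IPs against 203, 184 and 195 in the HA-IPs (log2 fold change -0.53 ± 0.11, limma adjusted p = 0.011).

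Of the 4 small heat shock proteins outside the rule that were in the table, 3 were called higher in the Flag-IPs, and HSPB9, at 18.8 to 35.3 normalized counts, was not called and had overlapping groups. CRYAB, which is abundant in heart, muscle and lens, was 5051, 3862 and 2609 in the Flag-IPs against 59.3, 28.7 and 410 in the HA-IPs (log2 fold change -5.36 ± 0.69, limma adjusted p = 0.00097). HSPB6, likewise a muscle protein, was 321, 1263 and 1250 in the Flag-IPs against 35.3, 27.7 and 135 in the HA-IPs (log2 fold change -3.94 ± 0.58, limma adjusted p = 0.0019). HSPB8, which acts with BAG3, was 112, 97.8 and 94.1 in the Flag-IPs against 55.7, 47.5 and 67.3 in the HA-IPs (log2 fold change -0.83 ± 0.19, limma adjusted p = 0.016). CRYAB and HSPB8 had the library order of the heart muscle markers, and HSPB6 was lowest of the Flag-IPs in replicate 1, where those markers were highest. The part of the markers' source in these values was not tested.

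**Figure D5:**
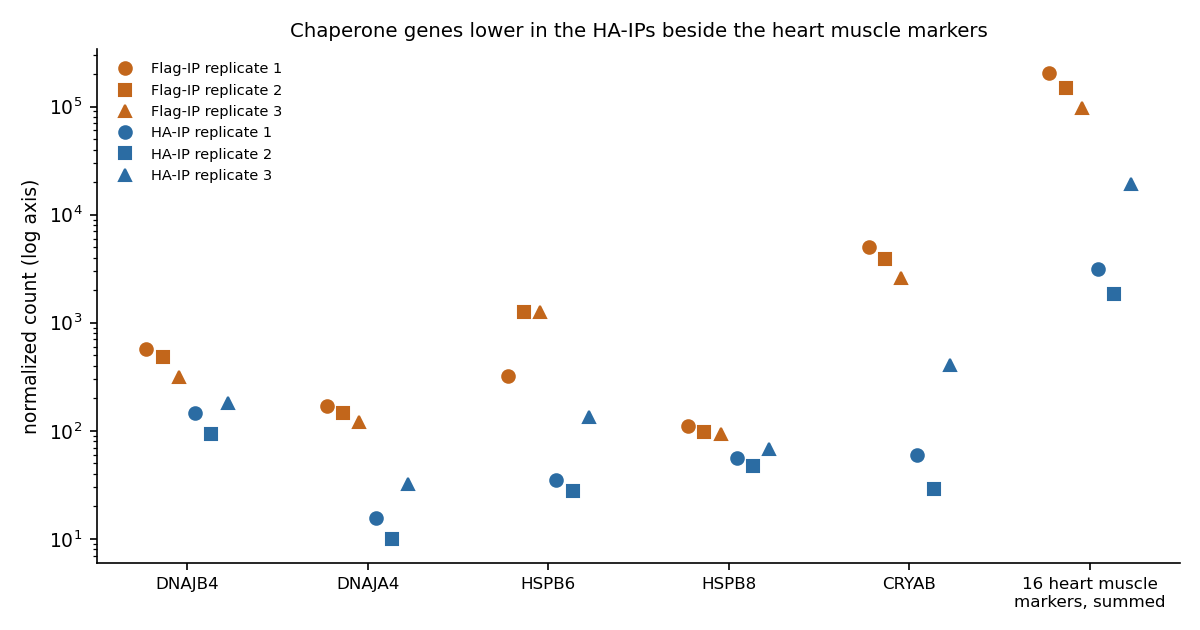
Normalized counts (log axis) of DNAJB4, DNAJA4, HSPB6, HSPB8 and CRYAB and of the 16 heart muscle markers summed, in each library. Orange marks Flag-IPs, blue HA-IPs and the shape the replicate number. For each gene all 3 Flag-IPs lie above all 3 HA-IPs, and HA-IP replicate 3 is the highest of the HA-IPs throughout.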

How the data were processed

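Per the submitters' processing notes, reads were trimmed with Trimmomatic 0.36, mapped to GRCh38 with STAR 2.5.2b, counted with featureCounts (Subread 1.5.2) and normalized with DESeq2, whose version is given as 3.16. Whether the counting used the strand is not given in the sources used here. The authors left out genes with fewer than 10 reads in at least 3 samples. The deposited values are a normalized signal, reads per gene divided by a size factor per library (0.770 to 1.42). The deposited table also holds the authors' own fold changes and adjusted p-values, which were not used. In all 6 libraries 100% of the values were whole multiples, within 0.01 of a read, of what 1 read is worth, so reads were recovered for the count tests. The libraries held 23174532 to 44134833 reads, and the part of depth in the calls was not tested.

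Groups came from the epitope tag in the labels. limma 3.58.1 (R 4.3.3) was fitted to log2(normalized count + 1) of all 16834 genes with a variance trend, two-sided, with the Benjamini-Hochberg adjustment. The scale understates the change of low genes. An exact permutation test of 3 against 3 libraries cannot go below 0.1 and was not used. Alternatives were pseudocounts of 0.1 and 10, a mean of at least 50 normalized counts, 3 other scalings, edgeR 4.0.16 and DESeq2 1.42.0 on recovered reads, no variance trend, a replicate block, removal of GC and length trends (spline with 5 degrees of freedom, MASS 7.3.60.0.1), an adjusted p of at most 0.01 and each library left out. The tests were tried on simulated data. Tables and plots were made with Python 3.11.15, pandas 2.3.3 and matplotlib 3.10.9.

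The members and lists were chosen with earlier results of these data known. Genes named by rule are the called members (at most 12 per direction), the members highest and lowest in log2 fold change with a mean of at least 100, a fixed set of main chaperones, and of the other folding genes HSF1, CRYAB and the 8 called with the largest change. Other genes were named after their values were seen. Exons, transcript lengths and pseudogene names came from GENCODE 44 (all 71 members matched) and upstream sequences from RefSeq (GRCh38.p14).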

Additional observations from a re-analysis of the deposited data

How the results depend on the processing

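The 17 called members kept their direction under every scaling, test and pseudocount, except HSP90AB1 under quantile normalization (0.00). All these settings used the same 6 libraries. The groups of the 17 did not overlap, so that leaving out a library could not change their direction. Members called higher in the HA-IPs (11) numbered 5 with quantile normalization, 0 in limma without the trend (13 at an unadjusted p under 0.05, and 13 to 14 called by edgeR and DESeq2), and 5 at an adjusted p of at most 0.01. Those higher in the Flag-IPs (6) numbered 1 without the trend and 2 at 0.01. Leaving out a library gave 3 to 17 and 2 to 6, and a median of the members of 0.016 to 0.060. That median was 0.019, and -0.034 with the same total per library, where all genes split into 471 higher in the HA-IPs and 1576 higher in the Flag-IPs against 975 and 1196. With the replicate number as a block the counts were 12 and 3, HSPE1, DNAJC19 and DNAJC2 losing their calls. Deviations of same-numbered libraries from their group means correlated at -0.16, 0.031 and -0.31 over 13141 genes with a mean of at least 50. Taken from means of 3 libraries, these values depend on each other and cannot show whether the numbers pair the libraries. Small differences changed sign. HSPB1 gave -0.033 with the same total, -0.057 without Flag-IP replicate 1 and -0.15 without HA-IP replicate 3, the lowest of its values without a library, the highest being 0.16. DNAJA1 gave -0.030 with quantile normalization, -0.034 with the same total, -0.0062 without Flag-IP replicate 2 and -0.031 without HA-IP replicate 3, and DNAJB1 gave -0.011 with the same total. CCT3 and CCT7 gave -0.035 and -0.055 with quantile normalization. CCT2 gave -0.095 there, -0.040 with the same total, -0.0037 without Flag-IP replicate 1 and -0.0072 without HA-IP replicate 3, with 0.025 without HA-IP replicate 2 as its highest. The causes were not tested. There were 3 libraries per group, and the called DNAJA4 had 10 reads in its lowest library. Whether spread or depth limited the calls was not tested. Reads shared with copies or overlapping genes stay uncertain for HSPA1A, HSPA1B, HSPE1, DNAJC2 and DNAJC19.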

Other observations

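Pseudogenes named for members were in the table beside the members themselves. All 10 had a negative log2 fold change, with a median of -0.96, and 5 were called higher in the Flag-IPs by limma, against 7.1% of all genes. A gene was listed only when 3 libraries reached 10 reads. HSPA5P1, HSPA8P1, HSPD1P7 and DNAJC19P9 met this only through the Flag-IPs, so their direction was largely set by that filter. The counts above therefore cannot show a direction of the pseudogenes. The normalized counts of HSPA5P1 were 87.0, 69.1 and 46.1 in the Flag-IPs against 6.35, 2.97 and 7.72 in the HA-IPs, while HSPA5 itself was higher in the HA-IPs. DNAJC19P9 had 104, 72.3 and 31.4 in the Flag-IPs against 0, 0 and 11.0 in the HA-IPs, in the direction of DNAJC19. HSPD1P1, in a family whose parent HSPD1 was higher in the HA-IPs, had 112, 133 and 85.8 in the Flag-IPs against 61.4, 48.5 and 55.1 in the HA-IPs. The pseudogenes of the CCT subunits, CCT6P1, CCT6P3 and CCT8P1, were not called. These genes were chosen by name after values of other pseudogenes were known, and counting could split reads between a pseudogene and its parent.

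Of the HSP90 helpers, PTGES3, the p23 protein that closes the HSP90 clamp, was 19271, 20480 and 19867 in the Flag-IPs against 16187, 16539 and 16823 in the HA-IPs (log2 fold change -0.27 ± 0.046, limma adjusted p = 0.0046), and it was called in 6 of 6 fits without a library. STIP1, which hands clients from HSP70 to HSP90, was 19990, 20242 and 21112 in the Flag-IPs against 22903, 23386 and 25582 in the HA-IPs (log2 fold change 0.23 ± 0.053, limma adjusted p = 0.019). STIP1 was called in 3 of 6 such fits. Both PTGES3 and STIP1 had means above 10000 and no overlap between groups, and they differed in opposite directions. Of the BAG family, BAG3 was 2317, 2571 and 2733 in the Flag-IPs against 3075, 3324 and 3053 in the HA-IPs (log2 fold change 0.31 ± 0.066, limma adjusted p = 0.012). BAG2 and BAG6 were also called higher in the HA-IPs, while BAG4 (-0.022 ± 0.087) and BAG5 (-0.060 ± 0.056) were not called. Of the 6 fits without a library, BAG3, BAG2 and BAG6 were called in 4, 3 and 2. These genes were named after their values were seen.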
